A study of Mus musculus with 6 samples.

Results

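The genes described here belong to 3 related stress programmes: the integrated stress response, the unfolded protein response of the endoplasmic reticulum (ER) and the heat shock response. They are 38 of the 27962 gene names on the array, picked by symbol with all their probes: 10 regulators, 11 targets of the transcription factor ATF4, 10 ER chaperones and degradation factors, and 7 heat shock genes. Of these, 36 had at least 1 probe under their name, 69 probes in all. For 35 genes the brightest probe was well above background on all 3 arrays of BRG1 siRNA, control siRNA or both, and these were tested. Hspa1b, an inducible HSP70 gene, and Ppp1r15a, which encodes the GADD34 phosphatase subunit, had no probe under those names. Slc7a11, the cystine transporter gene, was not well above background on any array with any of its 4 probes.

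The cells were mouse embryonic stem (ES) cells, pluripotent cells of the early embryo grown in culture, of a mixed F1 background of strains 129 and C57BL/6. One group was given siRNA against BRG1 for 48 h, and the other was given a scrambled control siRNA for the same time. BRG1, encoded by Smarca4, is the ATPase of SWI/SNF complexes, which slide and evict nucleosomes. Each group was measured on 3 single-colour Agilent arrays, for which 500 ng of total RNA was labelled. The knockdown was partial: Smarca4 signal, given here and below as a multiple of the array's 75th percentile, was 13.6, 13.4 and 12.1 with BRG1 siRNA, against 20.04, 20.5 and 18.8 with control siRNA. That is 65.8% of the control level (log2 change -0.60 ± 0.06 SE, limma adjusted p = 0.00365), and the 3 Smarca4 probes showed 54.7% to 66.2%. Of the 2 slides, the first carried BRG1 siRNA replicate 1 and all 3 controls, and the second carried the other two BRG1 siRNA arrays. Nothing in the labels says that replicates were separate cultures, so the p-values rest on a spread that may be technical only, and 3 arrays a group set the precision. In bulk RNA, fewer cells of a type and less RNA per cell cannot be told apart.

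In the integrated stress response, kinases that sense amino acid shortage or ER stress, among others, phosphorylate the translation factor eIF2. General translation then slows while the mRNA of ATF4 is translated more, and ATF4, a basic leucine zipper factor, switches on genes for amino acid synthesis, amino acid uptake and tRNA charging. The unfolded protein response adds the ER sensors IRE1 and ATF6, which raise ER chaperones and the machinery that removes misfolded proteins. The heat shock response, driven by HSF1, raises cytosolic chaperones. ATF4 is regulated largely at translation, which arrays of RNA do not measure.

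The promoters are shown first because the response elements of these programmes are short sequences that differ between ATF4 targets and ER chaperones. The 250 bases before each start were taken from RefSeq (GRCm38.p6), where 33 of the 38 genes matched with 37 windows; Atf6, Slc7a5, Hspa8, Hsf1 and Hyou1 have no window here. TGATGNAA, the core of the C/EBP-ATF response element that ATF4 recognises together with C/EBP partners, was searched on both strands. It lay in the windows of Asns, Chac1, Atf3, Herpud1 and Slc7a11, which is 5 of 33 genes, and in 3.45% of the 32851 windows of all genes. Of all genes tested, 13.4% were lowered, and the lowered share among all genes with a match was not computed. Asns, Chac1, Atf3 and Herpud1 were lowered by BRG1 siRNA (values below), out of 8 lowered genes with a window. They are printed 5′ to 3′ along the gene, with the match in capitals; the windows are chr6:7693210-7693459 (minus strand) for Asns, chr2:119350992-119351241 (plus) for Chac1, chr1:191183334-191183583 (minus) for Atf3 and chr8:94386179-94386428 (plus) for Herpud1.
Asns: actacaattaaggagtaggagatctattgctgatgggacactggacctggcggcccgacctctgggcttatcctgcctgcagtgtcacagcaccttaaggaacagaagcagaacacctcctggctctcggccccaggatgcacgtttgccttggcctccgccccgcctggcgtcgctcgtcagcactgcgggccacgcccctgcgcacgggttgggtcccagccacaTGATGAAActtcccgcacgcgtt
Chac1: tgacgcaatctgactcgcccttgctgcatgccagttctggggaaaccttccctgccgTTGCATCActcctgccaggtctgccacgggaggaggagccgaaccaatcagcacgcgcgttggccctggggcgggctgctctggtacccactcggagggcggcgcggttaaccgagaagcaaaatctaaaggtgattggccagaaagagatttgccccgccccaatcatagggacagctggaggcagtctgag
Atf3: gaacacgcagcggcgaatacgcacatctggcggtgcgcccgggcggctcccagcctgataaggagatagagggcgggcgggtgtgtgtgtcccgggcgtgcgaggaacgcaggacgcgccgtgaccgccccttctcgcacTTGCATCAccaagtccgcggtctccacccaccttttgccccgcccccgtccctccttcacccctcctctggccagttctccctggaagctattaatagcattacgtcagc
Herpud1: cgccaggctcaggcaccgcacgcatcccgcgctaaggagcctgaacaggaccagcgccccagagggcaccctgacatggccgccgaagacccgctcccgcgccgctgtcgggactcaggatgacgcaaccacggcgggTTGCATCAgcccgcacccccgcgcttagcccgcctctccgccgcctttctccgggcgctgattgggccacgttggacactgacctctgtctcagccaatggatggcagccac
The match in Asns reads along the gene, and those in Chac1, Atf3 and Herpud1 are on the other strand and appear as TTGCATCA. A match describes the letters only and is not evidence of binding. Other forms of this element, and bases outside the windows, were not searched. Members without a match, such as Psat1 and Phgdh, are therefore not shown to lack it.

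The ER stress response element was searched only as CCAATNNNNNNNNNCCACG, on either strand, and other forms of it were not searched. The Herpud1 window, printed above, ends inside a possible match whose last base lies past the window. Herpud1 is therefore not shown to lack the element. A full match lay in the windows of Hspa5, Hsp90b1, Pdia6 and Dnajc3, all ER chaperone genes, and in 0.113% of all windows. None of these 4 genes passed the test at its brightest probe, although Hsp90b1 and Dnajc3 passed under other settings given below. Their windows are printed in the same way, at chr2:34771840-34772089 (plus) for Hspa5, chr10:86705445-86705694 (minus) for Hsp90b1, chr12:17266339-17266588 (plus) for Pdia6 and chr14:118937682-118937931 (plus) for Dnajc3. The capitals mark the element, which Hsp90b1 holds on both strands, and in Hspa5 also the unfolded protein response element TGACGTG, found in 1.65% of all windows and in no other member.
Hspa5: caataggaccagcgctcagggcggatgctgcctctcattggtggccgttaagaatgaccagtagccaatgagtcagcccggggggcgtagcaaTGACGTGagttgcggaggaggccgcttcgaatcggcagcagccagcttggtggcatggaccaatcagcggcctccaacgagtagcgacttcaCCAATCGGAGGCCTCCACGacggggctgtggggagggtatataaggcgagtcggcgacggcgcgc
Hsp90b1: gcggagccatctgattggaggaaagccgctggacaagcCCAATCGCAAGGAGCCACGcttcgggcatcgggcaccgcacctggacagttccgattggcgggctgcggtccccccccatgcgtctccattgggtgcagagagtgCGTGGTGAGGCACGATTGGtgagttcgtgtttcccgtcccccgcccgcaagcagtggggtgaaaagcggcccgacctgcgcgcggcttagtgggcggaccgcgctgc
Pdia6: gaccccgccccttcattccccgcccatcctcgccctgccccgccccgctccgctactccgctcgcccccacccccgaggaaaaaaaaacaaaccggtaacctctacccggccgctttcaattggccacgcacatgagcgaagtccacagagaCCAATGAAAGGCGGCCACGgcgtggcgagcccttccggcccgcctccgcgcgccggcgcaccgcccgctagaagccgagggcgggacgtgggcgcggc
Dnajc3: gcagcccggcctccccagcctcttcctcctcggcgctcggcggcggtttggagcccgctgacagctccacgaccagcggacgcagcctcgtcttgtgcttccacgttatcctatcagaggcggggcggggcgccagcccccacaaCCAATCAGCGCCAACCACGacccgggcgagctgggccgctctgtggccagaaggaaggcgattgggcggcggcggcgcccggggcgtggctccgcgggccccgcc
An exact match to the heat shock element GAANNTTCNNGAA, which reads TTCNNGAANNTTC on the other strand, lay in 0.466% of all windows and in no member's window. Imperfect forms of the element were not searched, so the heat shock genes are not shown to lack it. The 4 motifs searched were chosen after the members' values were seen.

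Of the 35 genes tested, BRG1 siRNA lowered 8 and raised 1, and 26 did not pass the test; of all genes tested, 23.3% passed in either direction. The lowered share of 22.9% compares with 13.4% of the 17758 genes tested on the array, and the raised share of 2.86% with 9.87%. By role, 5 of 10 ATF4 targets tested were lowered and 2 of 9 regulators. Of 10 ER chaperones and degradation factors 1 was lowered, and of 6 heat shock genes none. With the mean over the probes of each gene, the falls numbered 3, 2, 2 and 1 in the same order. Whether the share of falls differed between roles was not tested. The median log2 change was -0.22 for ATF4 targets, -0.07 for ER genes, -0.07 for heat shock genes and 0.02 for regulators, beside -0.04 for all genes tested. All BRG1 siRNA arrays lay above all control arrays for 5 members and below them for 14, which is 14.3% and 40.0%, beside 18.9% and 25.1% of all genes tested. The count of lowered members was 3, 3 and 10 without BRG1 siRNA replicates 1, 2 and 3, and 7, 4 and 3 without control replicates 1, 2 and 3.

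**Figure D1:**
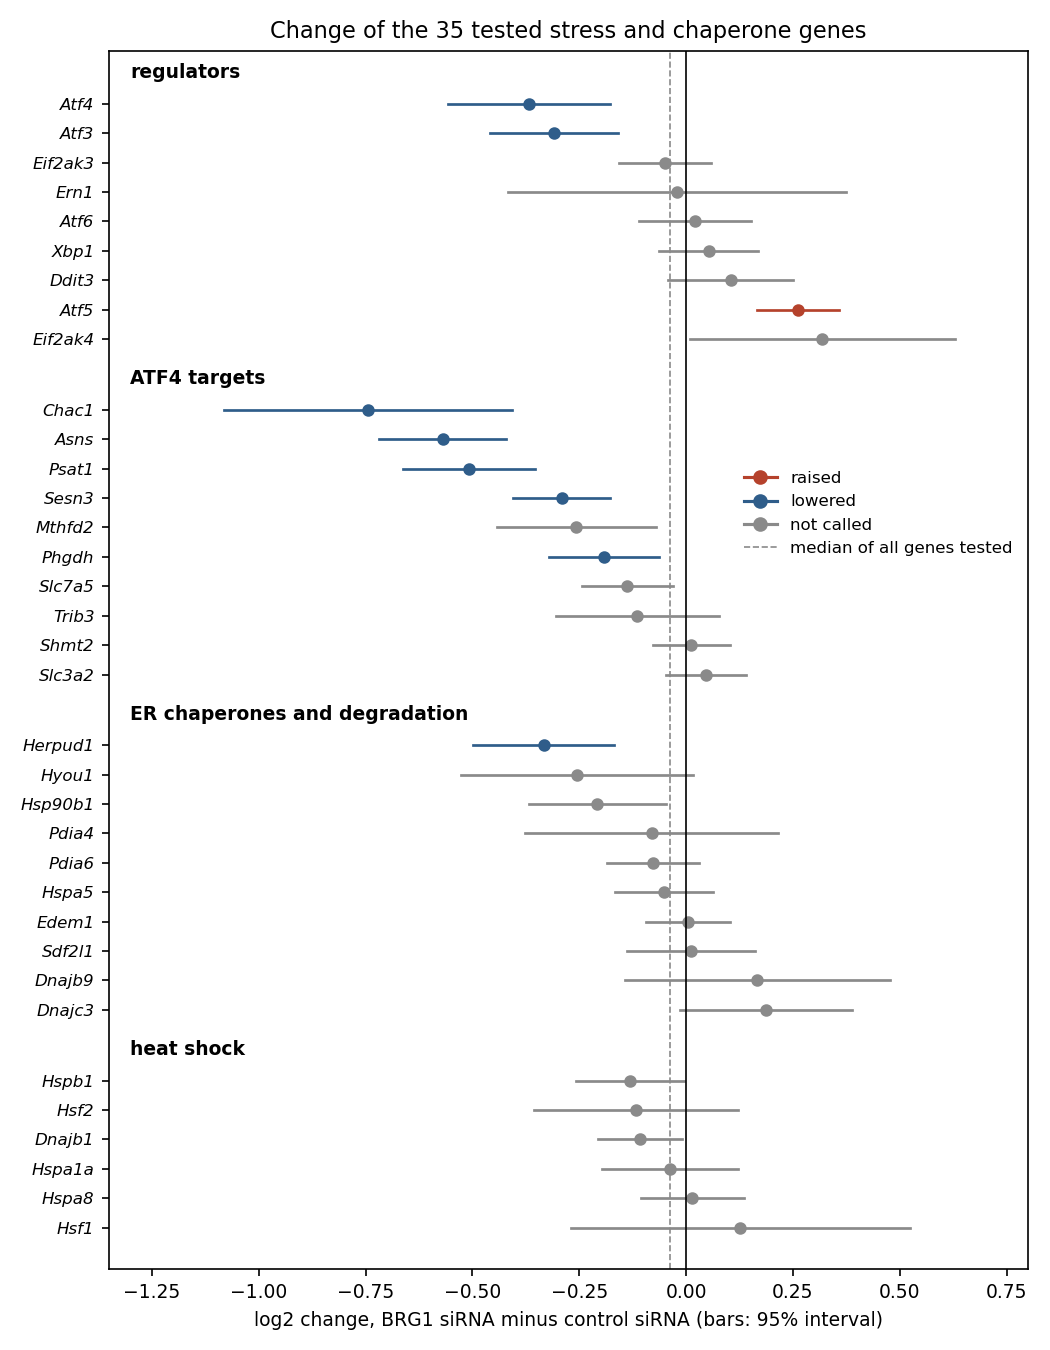
Log2 change (BRG1 siRNA minus control siRNA) of each tested member, with its 95% interval from limma, in 4 blocks by role (n = 3 arrays per group). The 8 lowered genes are in blue, the raised gene Atf5 in red, and 5 of the falls lie in the block of ATF4 targets.

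Among the regulators, the eIF2 kinases and ER sensors showed no change that passed the test, while 3 transcription factors did. Atf4, the effector of the integrated stress response, had a signal of 2.75, 2.77 and 2.71 with BRG1 siRNA, against 3.17, 3.78 and 3.70 with control siRNA. All 3 BRG1 siRNA arrays lay below all control arrays, of which replicate 1 was the lowest. The log2 change was -0.37 ± 0.08 (SE, limma adjusted p = 0.0232), or 77.5% of control, at the probe on chromosome 15, 80341130 to 80341189 of the mm7 build. Atf3, a stress-induced factor that ATF4 activates, had 0.438, 0.438 and 0.459 with BRG1 siRNA and 0.514, 0.586 and 0.557 with control siRNA. The groups again did not overlap, and the change was -0.31 ± 0.06 (adjusted p = 0.0193; chromosome 1, 190724174 to 190724233). Atf5 moved the other way. This relative of ATF4, which controls the mitochondrial unfolded protein response, had 12.1, 12.2 and 12.5 with BRG1 siRNA and 10.3, 10.03 and 10.4 with control siRNA. Every BRG1 siRNA array was above every control array, by 0.26 ± 0.04 on the log2 scale (adjusted p = 0.00854; chromosome 7, 40986870 to 40986929). Leaving out single arrays kept the Atf5 call each time. The Atf4 call was lost without any array except control replicate 1 (adjusted p 0.00979 to 0.0926), and the Atf3 call without BRG1 siRNA replicate 1 or 2 or control replicate 2 or 3 (0.0211 to 0.0814).

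The kinase and ER sensor genes differed in how tightly they were measured. Eif2ak3, which encodes the ER stress kinase PERK, changed by -0.05 (95% interval -0.16 to 0.06), and Atf6, the membrane-bound ER sensor, by 0.02 (-0.11 to 0.15). Xbp1, whose mRNA IRE1 splices, changed by 0.05 (-0.06 to 0.17); its splicing is not measured by this probe value. These 3 intervals lay between -0.16 and 0.17. Ern1, the gene of IRE1 itself, was less precisely measured, with a change of -0.02 and an interval of -0.42 to 0.37. Eif2ak4, the gene of the amino acid sensing kinase GCN2, had 0.693, 0.632 and 0.701 with BRG1 siRNA and 0.448, 0.598 and 0.590 with control siRNA. Its arrays did not overlap, but control replicate 1 lay far below the other controls and the change of 0.32 ± 0.12 did not pass (adjusted p = 0.124). A second Eif2ak4 probe showed 0.03 ± 0.07 (adjusted p over probes = 0.745). Ddit3, which encodes the pro-apoptotic factor CHOP, changed by 0.10 ± 0.06 (adjusted p = 0.252).

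The ATF4 targets held the largest falls of the set. Chac1, which encodes an enzyme that degrades glutathione, had a signal of 1.05, 0.952 and 1.06 with BRG1 siRNA, against 1.39, 1.96 and 1.82 with control siRNA. The groups did not overlap, and control replicate 1 was the lowest control, as it was for Atf4. The change was -0.74 ± 0.14 (SE, limma adjusted p = 0.0159; chromosome 2, 119095103 to 119095162 of mm7), a 1.67-fold lower level. Asns, asparagine synthetase, had 29.0, 29.6 and 32.8 with BRG1 siRNA, against 43.9, 45.3 and 46.2 with control siRNA. All BRG1 siRNA arrays were well below all controls, at 67.4% of control (-0.57 ± 0.06, adjusted p = 0.00354; chromosome 6, 7628080 to 7628139).

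Of the serine synthesis genes, Psat1 and Phgdh passed the test and Psph, the phosphatase of the last step, did not (-0.10 ± 0.04, adjusted p = 0.135; chosen after its value was seen). Psat1, the transaminase of the pathway, had 13.2, 14.0 and 13.1 with BRG1 siRNA and 17.7, 20.1 and 19.6 with control siRNA. The groups were far apart, with a change of -0.51 ± 0.06 (adjusted p = 0.00511; chromosome 19, 15606408 to 15606467). Phgdh, the dehydrogenase that opens the pathway, had 26.3, 28.2 and 28.2 with BRG1 siRNA and 30.3, 31.4 and 32.7 with control siRNA. Its arrays did not overlap either, but the change was small (-0.19 ± 0.05, adjusted p = 0.0487; chromosome 3, 98184399 to 98184458). No Phgdh probe passed when p was adjusted over probes, this brightest one included (adjusted p over probes = 0.0573). The other Phgdh probes gave -0.18 and -0.14 (adjusted p over probes = 0.0821 and 0.176). The Phgdh call was also lost when any single array was left out (adjusted p 0.0624 to 0.162). Shmt2, the mitochondrial enzyme that passes carbon from serine to folate, changed by 0.01 (95% interval -0.08 to 0.10). Mthfd2, the next folate enzyme, changed by -0.26 ± 0.08 and missed the threshold (adjusted p = 0.0606), with its groups not overlapping.

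Sesn3, a sestrin that restrains mTORC1, had 1.37, 1.42 and 1.40 with BRG1 siRNA and 1.67, 1.79 and 1.67 with control siRNA. Every BRG1 siRNA array lay below every control array, by -0.29 ± 0.05 on the log2 scale (adjusted p = 0.0103; chromosome 9, 14170138 to 14170197). A second Sesn3 probe fell as well (-0.34 ± 0.05, adjusted p over probes = 0.0108). The third, much dimmer, did not pass (-0.25 ± 0.32, adjusted p over probes = 0.626), nor did Sesn3 with the mean over its probes (-0.29, adjusted p = 0.136). The amino acid transporter genes did not pass the test. Slc7a5, the light chain of the LAT1 transporter, changed by -0.14 ± 0.04 (adjusted p = 0.0712), and Slc3a2, its heavy chain, by 0.05 (95% interval -0.05 to 0.14). Trib3, a pseudokinase that feeds back on ATF4 and AKT, changed by -0.11 ± 0.08 (adjusted p = 0.331). Leaving out single arrays kept the calls for Asns, Psat1 and Sesn3 each time, with adjusted p of at most 0.0258, 0.0328 and 0.0466. The Chac1 call was lost without BRG1 siRNA replicate 1 or 2 or control replicate 3 (adjusted p 0.00704 to 0.0692). Of the 10 ATF4 targets tested, 7 were lowered with normexp background correction, with trend and robust eBayes and with array weights. Lowered targets numbered 2 with median scaling and with slide as a fixed block, and 1 with spike-in scaling.

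**Figure D2:**
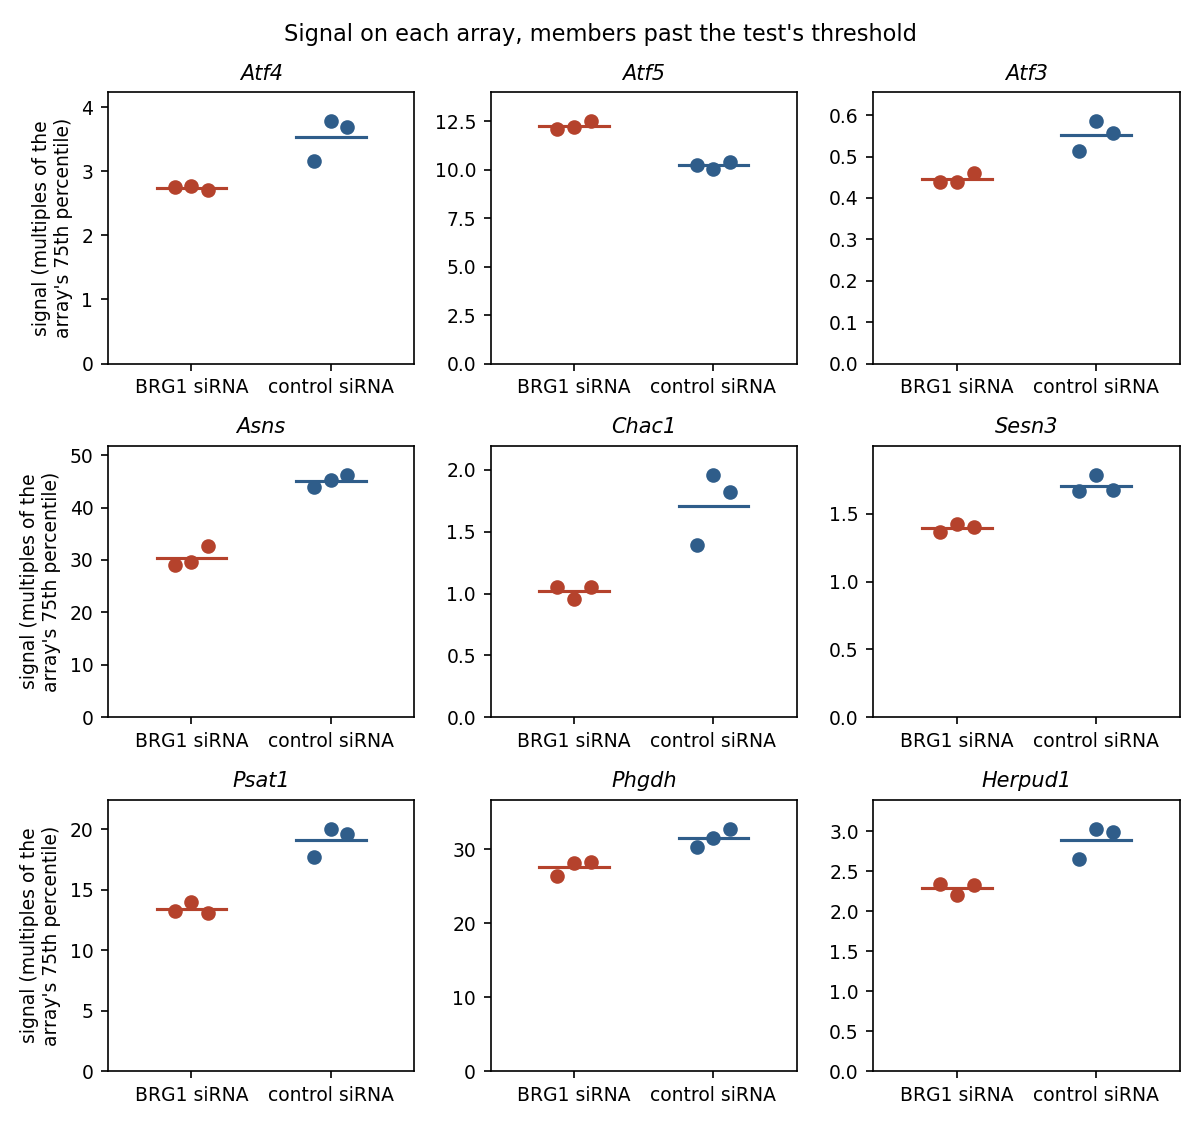
Signal on each array (multiples of the array's 75th percentile, linear axes from 0) of the 9 members past the threshold, with BRG1 siRNA left of control siRNA; lines are geometric means of 3 arrays. The groups do not overlap for any of the 9, and only Atf5 is higher with BRG1 siRNA.

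The ER chaperones and degradation factors gave 1 fall in 10 genes tested. That fall was Herpud1, a membrane protein of ER-associated degradation, with 2.34, 2.20 and 2.32 with BRG1 siRNA, against 2.65, 3.03 and 2.99 with control siRNA. The groups did not overlap, control replicate 1 was again the lowest control, and the change was -0.33 ± 0.07 (SE, limma adjusted p = 0.0206; chromosome 8, 92984261 to 92984320 of mm7). Its call was lost without BRG1 siRNA replicate 1 or 2 or control replicate 2 or 3 (adjusted p 0.0166 to 0.0858). Hspa5, the gene of the HSP70 chaperone BiP that is widely read as a sign of ER stress, had 39.1, 37.3 and 37.97 with BRG1 siRNA and 37.9, 40.4 and 40.4 with control siRNA. Its groups overlapped, with a change of -0.05 (95% interval -0.17 to 0.06). Hsp90b1, the ER form of HSP90, lay lower on each BRG1 siRNA array, at 53.6, 54.7 and 61.3 against 65.3, 63.1 and 67.0 with control siRNA, but missed the threshold (-0.21 ± 0.06, adjusted p = 0.0707). It passed as lowered with the mean over its probes (-0.20, adjusted p = 0.021), with trend and robust eBayes (adjusted p = 0.0275), with array weights (-0.26, adjusted p = 0.01) and without BRG1 siRNA replicate 3 (-0.27, adjusted p = 0.0216).

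The protein disulfide isomerases Pdia4 and Pdia6 changed by -0.08 ± 0.12 and -0.08 ± 0.04 (adjusted p = 0.666 and 0.249). Dnajc3, the P58IPK co-chaperone, was above its controls on each BRG1 siRNA array, with a change of 0.19 ± 0.08 that did not pass (adjusted p = 0.153). Dnajb9, a BiP co-chaperone, and Hyou1, an ER chaperone induced by low oxygen, changed by 0.17 ± 0.12 and -0.25 ± 0.11 with overlapping groups (adjusted p = 0.381 and 0.152). Edem1, a lectin that hands misfolded glycoproteins to degradation, changed by 0.00465 (95% interval -0.09 to 0.10). Sdf2l1, a cofactor of BiP, changed by 0.01 (-0.14 to 0.16). Among the 10 ER genes tested, the falls numbered 4 with array weights and 3 without BRG1 siRNA replicate 3. They numbered 0 with median scaling, with spike-in scaling and with slide as a fixed block.

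No heat shock gene passed the test at its brightest probe. With array weights 1 of the 6 tested was lowered, and 1 was lowered without BRG1 siRNA replicate 3. Hspa1a, the stress-inducible HSP70, had 1.198, 1.32 and 1.26 with BRG1 siRNA and 1.38, 1.27 and 1.23 with control siRNA, overlapping values with a change of -0.04 (95% interval -0.20 to 0.12). The constitutive Hspa8 changed by 0.02 (-0.11 to 0.14). Hspb1, the small heat shock protein HSP27, and Dnajb1, the HSP40 partner of HSP70, lay below all their controls on each BRG1 siRNA array but did not pass, at -0.13 ± 0.05 and -0.11 ± 0.04 (adjusted p = 0.119 and 0.105). Hsf2, a second heat shock factor, changed by -0.12 ± 0.10 (adjusted p = 0.428).

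For Hsf1, the factor that drives the heat shock response, the brightest probe and the other two gave different calls. Its brightest probe overlapped between groups (0.13 ± 0.16, adjusted p = 0.609), whereas both of its dimmer probes were raised, by 0.34 ± 0.04 and 0.40 ± 0.08 (adjusted p over probes = 0.00526 and 0.0263). The brightest probe lies at 76582655 to 76582715 and the other two at 76583299 to 76583358 and 76583221 to 76583280 of chromosome 15 (mm7). A dimmer Dnajb1 probe fell by 0.23 ± 0.06 on the log2 scale (adjusted p over probes = 0.0415), and Dnajb1 passed with the mean over its probes (-0.17, adjusted p = 0.0494). Among all 62 tested probes of the set, 3 were raised and 9 lowered, beside 8.60% raised and 11.0% lowered of the 26260 probes tested on the array.

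The calls depended on the scaling and on fitting slide as a fixed block, written below as slide as a block. With slide as a random block (consensus correlation -0.000602), all 9 called members kept their calls, 1 raised and 8 lowered. With slide as a block, which compares BRG1 siRNA replicate 1 with the controls of the same slide, all 9 called members kept their direction and 2 passed, Asns (-0.64, adjusted p = 0.0304) and Psat1 (-0.53, adjusted p = 0.0473). In that fit 5.15% of all genes were called lower and 2.69% higher. The changes of the others there were -0.70 for Chac1, -0.36 for Atf4, -0.33 for Atf3, -0.32 for Sesn3, -0.30 for Herpud1, -0.26 for Phgdh and 0.24 for Atf5 (adjusted p 0.0589 to 0.132). Scaling to 8 spike-in probes adds 0.20 to the log2 change of every gene, which moves the median of all genes to 0.16. Relative to that scale, Asns was still lowered (-0.37, adjusted p = 0.0243), Atf5 was raised (0.46, adjusted p = 0.0119), Phgdh turned to 0.00701, and the median of the ATF4 targets was -0.03. Ddit3 and Dnajc3 also passed as raised there (0.30 and 0.39, adjusted p = 0.0297 and 0.0234). Scaling to the median of each array adds 0.05 to every log2 change and left 2 calls, Asns and Chac1.

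**Figure D3:**
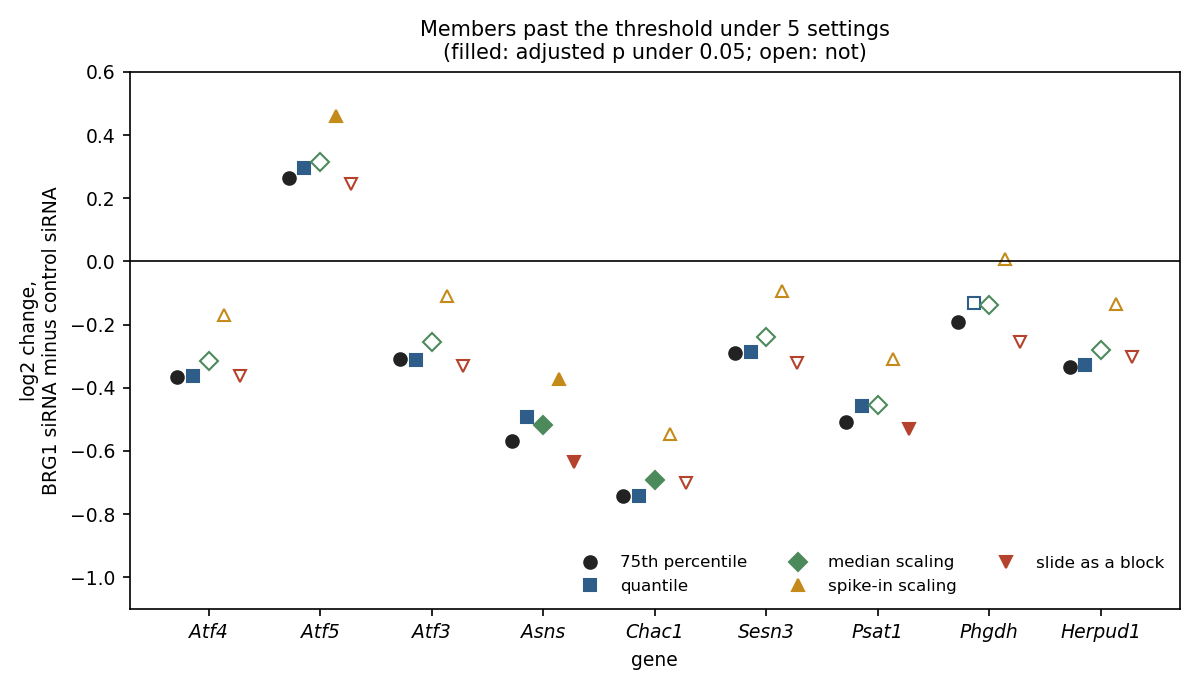
Log2 change (BRG1 siRNA minus control siRNA) of the 9 called members under 5 settings, filled where the adjusted p is under 0.05. Asns is filled under all 5, and Phgdh crosses 0 with spike-in scaling.

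Further genes of the same pathways were counted over whole lists, beside 13.4% lowered and 9.87% raised of all genes tested. Of 34 further integrated stress response genes tested, 8 were lowered and 1 raised (23.5% and 2.94%), with a median of -0.04, equal to that of all genes. With spike-in scaling 3 were lowered and 3 raised, and with median scaling 4 were lowered and none raised. The called genes with the largest change were Stc2, a secreted stanniocalcin (-0.67 ± 0.07, adjusted p = 0.00366), Vldlr, a lipoprotein receptor (-0.66 ± 0.11, adjusted p = 0.0116), Nupr1, a stress-induced chromatin protein (-0.54 ± 0.08, adjusted p = 0.00935), and Pck2, the mitochondrial PEP carboxykinase (-0.52 ± 0.07, adjusted p = 0.0059). Nupr1 and Pck2 did not pass with spike-in scaling (-0.35 and -0.32, adjusted p = 0.0509 and 0.0726), nor Pck2 with median scaling (-0.47, adjusted p = 0.0514). With slide as a block, Vldlr alone of these 4 did not pass (-0.73, adjusted p = 0.0669), nor did it without control replicate 3 (adjusted p = 0.0534). The raised gene was Pycr1, of proline synthesis (0.40 ± 0.09, adjusted p = 0.0275). Pycr1 was chosen after its value was seen. The falls in this list numbered 5 without BRG1 siRNA replicate 2 and 4 without control replicate 3. Among 20 aminoacyl tRNA synthetases, many of which ATF4 activates, 2 were lowered and none raised. That is a smaller lowered share than the 13.4% of all genes tested. These 2 were Dars (-0.28 ± 0.05, adjusted p = 0.0176) and Tars (-0.23 ± 0.04, adjusted p = 0.0154), and neither passed with a slide block, nor without BRG1 siRNA replicate 1 or 2 or control replicate 2 or 3 (adjusted p up to 0.0753 and 0.0766).

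Further genes of ER folding and the unfolded protein response gave 6 rises and 3 falls among 41, with a median of -0.00395. These are 14.6% raised and 7.32% lowered, beside 9.87% and 13.4% of all genes tested. With spike-in scaling 8 were raised and none lowered, and with median scaling 1 was raised and none lowered. Ero1b, which oxidises protein disulfide isomerases, was raised by 0.47 ± 0.04 (adjusted p = 0.00238), and Calr, the lectin chaperone calreticulin, by 0.32 ± 0.04 (adjusted p = 0.00538). Both kept their calls with slide as a block. Calr did not pass with median scaling (0.37, adjusted p = 0.0651), and Ero1b did not pass with the mean over its probes. Creb3l2, an ER-anchored transcription factor, and Txndc5, a disulfide isomerase, fell by 0.27 each (adjusted p = 0.0259 and 0.0178). Neither passed with a slide block (adjusted p = 0.102 and 0.0624), nor without BRG1 siRNA replicate 1 or 2 or control replicate 2 or 3 (adjusted p up to 0.087 and 0.0811), and Txndc5 did not pass without control replicate 1 either. The rises in this list numbered 2, 2 and 6 without BRG1 siRNA replicates 1, 2 and 3, and 2, 3 and 2 without control replicates 1, 2 and 3. The falls numbered 0, 0 and 5, and 1, 0 and 0, in the same order.

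Further cytosolic and mitochondrial chaperones gave 13 falls and 1 rise among 39, which is 33.3% lowered beside 13.4% of all genes tested, with a median of -0.10. With spike-in scaling 4 were lowered and 3 raised, and with median scaling 4 were lowered and 1 raised. Hspb8, a small heat shock protein, fell by 0.80 ± 0.04 on the log2 scale (adjusted p = 0.00103), and its partner in chaperone-assisted autophagy, Bag3, by 0.66 ± 0.06 (adjusted p = 0.00248). The list also holds Serpinh1, the collagen chaperone HSP47, which resides in the ER and not in the cytosol or mitochondria. It was lowered by a log2 change of -0.74 ± 0.05 (adjusted p = 0.00167) and Hspa2, an HSP70 best known from testis, by -0.57 ± 0.05 (adjusted p = 0.00256). These 4 kept their calls with slide as a block, and they are the 4 falls that the list then held, whereas its median was 0.10 with spike-in scaling. The number of falls in this list was 6, 5 and 9 without BRG1 siRNA replicates 1, 2 and 3, and 5, 5 and 4 without control replicates 1, 2 and 3.

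**Figure D4:**
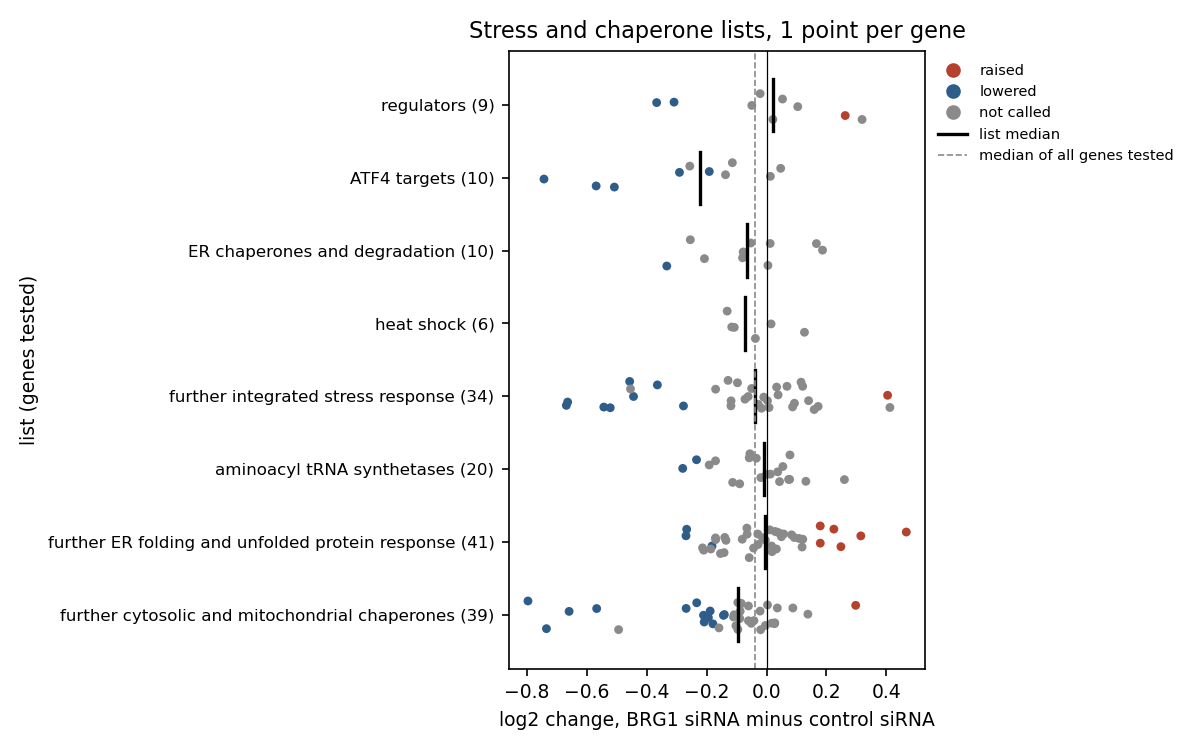
Log2 change (BRG1 siRNA minus control siRNA) of each tested gene in the 4 groups of the set (top) and 4 further lists of the same pathways (bottom); black bars are list medians and the dashed line is the median of all genes tested. The ATF4 targets have the lowest median, at -0.22, and the further ER genes hold 6 raised genes.

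Markers of 3 cell types were counted too, beside 13.4% lowered and 9.87% raised of all genes tested. Their summed signals did not overlap between groups for fibroblast markers only, and their part in the changes was not tested. Of 15 tested fibroblast markers, which feeder cells would carry, 7 were lowered and 2 raised, and the summed signal of the 16 on the array was 34.0 to 35.2 with BRG1 siRNA and 42.7 to 43.8 with control siRNA. None of the 16 was below the background limit on all arrays. ES cell markers summed to 483.5 to 504.0 with BRG1 siRNA and 480.5 to 486.7 with control siRNA, with 3 of 11 raised and 1 lowered. Primitive endoderm markers were dim, summing to 0.606 to 0.693 with BRG1 siRNA and 0.601 to 0.848 with control siRNA, with 1 of 6 tested lowered and Afp not well above background on any array.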

How the data were processed

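RNA of mouse ES cells was profiled on 6 single-colour arrays, 3 with BRG1 siRNA and 3 with control siRNA, grouped by the sample labels. The authors deposited scanner files, which hold the intensity of each spot on a linear scale. Per the file headers the array design was 014868, the software Agilent Feature Extraction 9.5.3.1 (9.5 in the submitters' processing notes) and the build of the probe coordinates mm7. The signal it gives as processed was background-subtracted within each array and not normalized between arrays. The deposited value table was identical to it (largest difference 0), so it is linear and not centred, and as single-colour values it has no ratio direction; its medians were 167.2, 161.8 and 172.6 for BRG1 siRNA replicates 1, 2 and 3 and 185.5, 181.3 and 173.3 for control replicates 1, 2 and 3.

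From these intensities, log2 signal minus each array's 75th percentile was computed. Control and outlier spots were left out, spots of a probe averaged, and each gene name represented by its brightest probe. Genes whose probe was well above background on all arrays of either group were tested (17758 of 27962 names; 60.9% to 75.3% of spots per array were well above background). All genes were fitted in R 4.3.3 with limma 3.58.1 (lmFit, then eBayes; two-sided), p-values were adjusted after Benjamini-Hochberg, and the threshold was 0.05. "Raised", "lowered", "rose" and "fell" mean past it. The fit was tested on simulated data. Arrays of the same group differed from each other with an SD of 0.232 to 0.320 (log2).

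Named are Smarca4, every member, and up to 4 called genes with the largest change in each further list; others are marked. Members, lists and motifs were chosen with earlier results of these data known. Probes are placed by coordinate, without exons. Alternatives were normexp background correction (offset 50), other scalings, other filters, slide as a fixed or random block or slide 1 alone, a block of replicate number, averaging probes or testing each, other eBayes settings, array weights, the value table and each array left out.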

Additional observations from a re-analysis of the deposited data

How the results depend on the processing

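Across 22 alternatives the number of genes called, 4139 as reported, was 1734 with median scaling, 1740 with no filter on dim probes, 1392 with slide as a block, 123 with slide 1 alone and 6946 with array weights. With single arrays left out it ran from 1668 to 4416. Members raised, 1 as reported, numbered 3 with spike-in scaling and 0 with median scaling, slide as a block and slide 1 alone. Members lowered, 8 as reported, numbered 2 with median scaling, 1 with spike-in scaling, 3 with no filter on dim probes, 2 with slide as a block, 0 with slide 1 alone and 14 with array weights, and 3 to 10 with single arrays left out. Smarca4 kept its fall except with slide 1 alone, where the change of -0.54 did not pass (adjusted p = 0.0628). In that setting a lone BRG1 siRNA array is assumed to vary like the controls. Phgdh changed sign with spike-in scaling, to 0.00701. The share of rises among called genes was 42.3%, and 84.1% with spike-in scaling. Of the 22 alternatives, Asns kept its call in 21, Atf5 and Psat1 in 19 each, Sesn3 in 17, Chac1 in 14, Atf3 and Herpud1 in 12 each, Atf4 in 11 and Phgdh in 7. The replicate numbers did not pair the arrays (correlations of same-numbered deviations -0.310, 0.105 and -0.0178). With the replicate number as a block, 1945 genes were called, and 3 members were lowered. The cause of these shifts was not tested. Dim members such as Slc7a11 were limited by background.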

Other observations

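A probe that the array design names Myd116 carries the transcript of Ppp1r15a, which encodes the GADD34 subunit that dephosphorylates eIF2 and so ends the integrated stress response. It lies outside the symbol rule used for the members. Its signal was 1.77, 1.64 and 1.70 with BRG1 siRNA and 1.57, 1.71 and 1.70 with control siRNA. The groups overlapped, with a log2 change of 0.04 ± 0.05 (SE, limma adjusted p = 0.637).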
